A study of Mus musculus with 10 samples.

Results

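The Schlafen family was examined in colonic intestinal epithelial cells (IECs) of WT and RhoB-/- mice. Its 7 members, Slfn1, Slfn2, Slfn3, Slfn4, Slfn5, Slfn8 and Slfn9, were taken by gene name from the 55487 genes of the deposited expression table. Schlafen proteins share a conserved N-terminal domain that resembles an ATP-binding fold, and fall into a short form (Slfn1, Slfn2), an intermediate form (Slfn3, Slfn4) and a long form that carries an added helicase-like domain (Slfn5, Slfn8, Slfn9). Several are induced by type I interferon, and family members are known for growth restraint in lymphocytes, for roles in myeloid cells and, through cleavage or protection of tRNA, for control of translation. Slfn3 has been studied in the differentiation of enterocytes.

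The study compared IECs of untreated wild-type mice (WT, 5 libraries) with those of mice lacking RhoB in all tissues (RhoB-/-, 5 libraries), all in the C57BL/6J strain. The mice were kept under specific pathogen free conditions and were 6 to 8 weeks old unless otherwise stated. The RhoB-/- mice came from a model organism centre, whereas WT males were bought from another supplier, and the methods do not state whether the WT mice of these libraries were littermates. If they were bought, the genotype and the source of the animals cannot be told apart. The IECs were released from opened colons with EDTA and dithiothreitol and were not sorted, and in such bulk RNA fewer cells of a type and less RNA per cell cannot be told apart.

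Values are TPM, a relative abundance in which each gene is scaled by transcript length and by the total of its library, so that levels of different genes can be set side by side but the read depth behind a value is unknown. The number of genes with a TPM above 0 was 20394 to 21344 in WT and 20261 to 20594 in RhoB-/- libraries, and mitochondrial genes took 17.5% to 26.5% and 10.3% to 22.4% of the TPM. Rhob, the targeted gene, had 170.52 to 388.71 TPM in WT and 0.09, 0.10, 0.35 and 0.57 TPM in RhoB-/- replicates 1 to 4. The library labelled RhoB-/- replicate 5 had 110.87 TPM of Rhob, and results are therefore also given without it. All 17 epithelial marker genes were above the filter on low values, with a mean Epcam level of 1157 TPM in WT and 1424 TPM in RhoB-/- libraries.

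The 7 members lie within 264 kb of chromosome 11 (GRCm38, 82951349 to 83215154, GENCODE release M21). Slfn5, Slfn2, Slfn1, Slfn4 and Slfn3 follow each other on the plus strand, and Slfn9 and Slfn8 lie on the minus strand between Slfn5 and Slfn2. The coding sequences of Slfn3 and Slfn4 were 92.1% identical over 1788 aligned bases and those of Slfn8 and Slfn9 92.7% identical over 2730, whereas Slfn1 and Slfn2 were 70.3% identical. No stretch of 150 bases, the read length, was shared between the annotated transcripts of any of the members. Slfn9 shared 1.46% of such stretches with the pseudogene Slfn10-ps, so a small part of the reads of these genes could be exchanged in counting.

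Promoter sequences from RefSeq (GRCm38.p6), each covering 250 bases before to 50 bases after a transcription start, were found for all 7 members. The sequences of 5 of them are shown 5′ to 3′ on the gene's strand: those of the 3 genes that rose by the test used here, that of Slfn3 as the close relative of Slfn4, and that of Slfn9 as the well-detected member that did not pass. Capitals mark either the letters GAAANNGAAA or TTTCNNTTTC, the core of the interferon-stimulated response element read on both strands, or a shared run of letters, ACTTCCTGG.
Slfn4, chr11:83174936-83175235, plus strand: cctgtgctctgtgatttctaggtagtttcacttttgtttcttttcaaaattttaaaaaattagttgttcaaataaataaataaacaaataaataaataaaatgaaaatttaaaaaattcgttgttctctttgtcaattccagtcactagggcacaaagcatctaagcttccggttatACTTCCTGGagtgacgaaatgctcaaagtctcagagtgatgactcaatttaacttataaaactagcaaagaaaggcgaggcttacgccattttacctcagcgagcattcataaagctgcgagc
Slfn3, chr11:83191080-83191379, plus strand: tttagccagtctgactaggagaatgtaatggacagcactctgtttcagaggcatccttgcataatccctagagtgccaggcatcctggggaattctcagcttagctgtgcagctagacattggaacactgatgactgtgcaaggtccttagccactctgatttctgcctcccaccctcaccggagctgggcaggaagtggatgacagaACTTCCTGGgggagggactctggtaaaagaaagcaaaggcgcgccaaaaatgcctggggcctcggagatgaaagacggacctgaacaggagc
Slfn2, chr11:83064862-83065161, plus strand: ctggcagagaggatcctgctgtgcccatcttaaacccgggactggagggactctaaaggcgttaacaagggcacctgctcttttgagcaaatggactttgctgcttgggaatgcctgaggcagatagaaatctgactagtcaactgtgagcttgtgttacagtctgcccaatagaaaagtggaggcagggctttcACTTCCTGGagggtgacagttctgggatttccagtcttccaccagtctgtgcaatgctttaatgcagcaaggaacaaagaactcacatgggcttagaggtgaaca
Slfn5, chr11:82951852-82952151, plus strand: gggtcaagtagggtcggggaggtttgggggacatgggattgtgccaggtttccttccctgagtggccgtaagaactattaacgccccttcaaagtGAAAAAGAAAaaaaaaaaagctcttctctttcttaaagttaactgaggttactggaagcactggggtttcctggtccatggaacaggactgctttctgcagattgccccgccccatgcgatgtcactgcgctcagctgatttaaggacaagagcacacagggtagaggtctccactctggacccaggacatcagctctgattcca
Slfn9, chr11:82991781-82992080, minus strand: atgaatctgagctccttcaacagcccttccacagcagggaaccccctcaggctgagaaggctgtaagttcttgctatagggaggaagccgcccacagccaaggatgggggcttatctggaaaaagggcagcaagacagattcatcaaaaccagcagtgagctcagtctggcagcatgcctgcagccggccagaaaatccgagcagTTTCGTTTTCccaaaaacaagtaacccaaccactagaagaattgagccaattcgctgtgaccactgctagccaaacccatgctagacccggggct
The response element letters were present in the promoters of Slfn5 (155 bases before the start), Slfn9 (45 bases before) and Slfn8 (48 or 136 bases before its 2 listed starts), and in 3.44% of the 32851 promoters of this length. In the windows of Slfn1, Slfn2, Slfn3 and Slfn4 these letters were not present, and the letters TTCNNNGAA of the gamma-activated site, present in 8.3% of promoters, were in none of the 7. ACTTCCTGG is the start of the longest run common to Slfn1, Slfn2 and Slfn4, ACTTCCTGGAG, which 24 of the 32851 promoters hold (0.0731%). The first 9 letters also occur in Slfn3, and in 277 promoters in all (0.843%). This run was sought after the expression values were known, and does not overlap the other motifs, so these matches are descriptions of the letters only.

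Slfn4 was the most abundant member in both genotypes and Slfn2 rose the most on the scale of the test, while Slfn9, the next most abundant member in WT, did not pass the test. Slfn5 and the scarce Slfn1 and Slfn8 were also higher in RhoB-/- IECs, and Slfn3 was not separated between the genotypes. Each log2 fold change is the RhoB-/- mean minus the WT mean of log2(TPM + 1). It was tested with limma over 12870 genes whose mean TPM reached 1, and a gene was called at an adjusted p below 0.05 with a fold above 1.5. Of the 7 members, 4 could be tested in this way, and 3 were called higher and 0 lower. Among all tested genes 5.58% were called higher and 7.13% lower. Slfn2 and Slfn5 reached the filter only through their RhoB-/- values, whereas Slfn4 and Slfn9 exceeded it in WT alone. For 5 of the 7 members the lowest RhoB-/- library was above the highest WT library, against 5% of the 18743 genes whose mean TPM reached 0.1, as all 7 members did. The plot of the members by library shows each of these values.

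**Figure D1:**
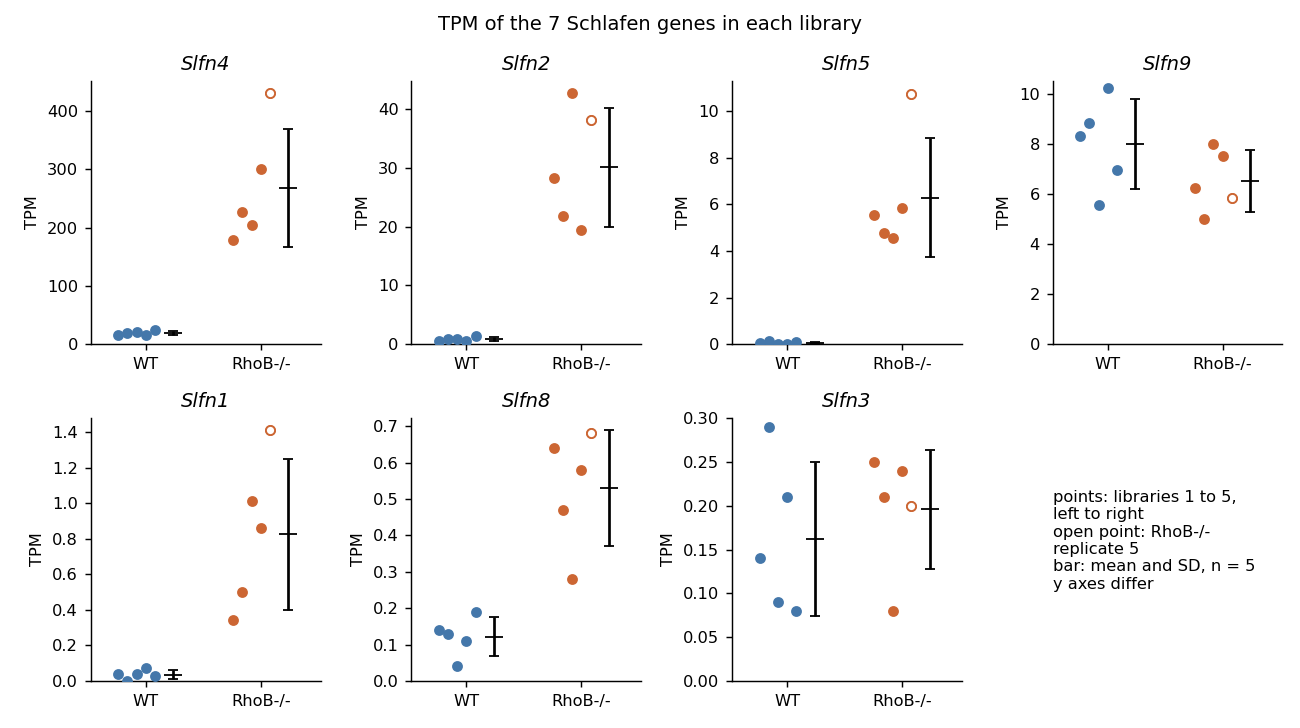
TPM (y axis, linear and different in each panel) of the 7 Schlafen genes in the 5 WT (blue) and 5 RhoB-/- (orange) libraries. Points are libraries, the open point is RhoB-/- replicate 5, and bars are mean ± SD (n = 5). Slfn4, Slfn2, Slfn5, Slfn1 and Slfn8 do not overlap between genotypes, and Slfn9 and Slfn3 do.

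Slfn4, an intermediate-length member best known from macrophages and other myeloid cells, had 16.66, 18.64, 20.91, 15.40 and 24.86 TPM in WT replicates 1 to 5. In RhoB-/- replicates 1 to 5 it had 179.50, 226.69, 204.65, 301.64 and 431.08 TPM. The groups were far apart, the lowest RhoB-/- library lying several times above the highest WT library, and RhoB-/- replicate 5 was the highest. The WT mean was 19.3 ± 3.75 TPM (SD, n = 5), against 269 ± 102 TPM (SD, n = 5) in RhoB-/-, a ratio of 13.9. The log2 fold change was 3.68 (standard error 0.22, adjusted p = 6.04e-07, limma with Benjamini-Hochberg adjustment), and 3.49 without RhoB-/- replicate 5 (adjusted p = 6.23e-07, limma). Ordered by mean TPM over all genes of the table, Slfn4 stood at place 4806 in WT and at place 438 in RhoB-/- IECs.

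Slfn3, its close relative on the same strand, lay near the lower end of detection. Its TPM was 0.14, 0.29, 0.09, 0.21 and 0.08 in WT and 0.25, 0.21, 0.08, 0.24 and 0.20 in RhoB-/- replicates 1 to 5. The ranges overlapped almost fully, with means of 0.162 ± 0.0881 and 0.196 ± 0.068 TPM (SD, n = 5 each; exact permutation test, two-sided p = 0.516). Slfn3 and Slfn4, whose coding sequences were 92.1% identical, had very different levels in these libraries.

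Slfn2, a short member known for keeping T cells and monocytes in quiescence, had 0.50, 0.89, 0.92, 0.58 and 1.44 TPM in WT replicates 1 to 5. It had 28.36, 21.84, 42.71, 19.49 and 38.23 TPM in RhoB-/- replicates 1 to 5. The groups were again fully apart, and the highest was replicate 3 rather than replicate 5. The means were 0.866 ± 0.37 and 30.1 ± 10.1 TPM (SD, n = 5 each), a ratio of 34.8. The log2 fold change was 4.02 (standard error 0.22, adjusted p = 3.35e-07, limma), and 3.92 without RhoB-/- replicate 5 (adjusted p = 1.65e-06, limma). Gm20234, a gene on the opposite strand across Slfn2 (chromosome 11, 83065752 to 83071246), was listed at 0 in all WT libraries and had 0.53, 1.77, 5.45, 0.13 and 1.59 TPM in RhoB-/- replicates 1 to 5. The highest and the lowest of these were the libraries in which Slfn2 was highest and lowest too. Because the sources do not state plainly that the counting used strand, reads of these overlapping genes may not be told apart.

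Slfn1, the other short member, first described as a restraint on thymocyte growth, was below the filter. Its WT values were 0.04, 0.00, 0.04, 0.07 and 0.03 TPM, and its RhoB-/- values 0.34, 0.50, 1.01, 0.86 and 1.41 TPM. The RhoB-/- libraries lay above the WT libraries without overlap, as was the case in this direction for 2.89% of the 5873 genes with a mean TPM of 0.1 to 1. Means were 0.036 ± 0.0251 and 0.824 ± 0.424 TPM (SD, n = 5 each), and the exact permutation test gave a two-sided p of 0.00794, the smallest that 5 against 5 libraries allow. Without RhoB-/- replicate 5 the exact p was again 0.00794. Slfn1 remained far below Slfn2 in every RhoB-/- library.

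Slfn5, a long member that is interferon-inducible in several cell types, was nearly absent from WT IECs, with 0.04, 0.13, 0.02, 0.03 and 0.09 TPM. In RhoB-/- replicates 1 to 5 it reached 5.55, 4.75, 4.54, 5.83 and 10.75 TPM. RhoB-/- replicate 5 stood well above the other RhoB-/- libraries, which lay close together. The means were 0.062 ± 0.0466 and 6.28 ± 2.55 TPM (SD, n = 5 each), and the log2 fold change was 2.72 (standard error 0.20, adjusted p = 3.24e-06, limma). It was 2.53 without RhoB-/- replicate 5 (adjusted p = 2.73e-06, limma). The log2(TPM + 1) scale understates the change of a gene this low in WT, and adding 0.1 in place of 1 gave 5.27. Slfn5os, antisense to Slfn5, was at 0 in 4 WT and 3 RhoB-/- libraries and did not exceed 0.36 TPM, with no difference by the exact permutation test (two-sided p = 0.444).

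Slfn9, a long member of the minus strand, was the exception among the well-detected members. Its TPM was 8.33, 8.83, 5.57, 10.25 and 6.95 in WT and 6.23, 4.99, 8.01, 7.50 and 5.84 in RhoB-/- replicates 1 to 5. The 2 ranges overlapped through most of their width. Means were 7.99 ± 1.79 and 6.51 ± 1.23 TPM (SD, n = 5 each), and the log2 fold change of -0.25 (standard error 0.16) did not pass (adjusted p = 0.282, limma). The median log2 fold change of all tested genes was -0.13, and relative to it the value of Slfn9 was -0.12. With the TPM of Slfn8, Slfn9 and Slfn10-ps summed to 1 value, the log2 fold change was -0.09.

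Slfn8, the near copy of Slfn9, was scarce, with 0.14, 0.13, 0.04, 0.11 and 0.19 TPM in WT and 0.64, 0.47, 0.28, 0.58 and 0.68 TPM in RhoB-/- replicates 1 to 5. Every RhoB-/- value lay above every WT value, as for 2.89% of the 5873 genes with a mean TPM of 0.1 to 1. Means were 0.122 ± 0.0545 and 0.53 ± 0.161 TPM (SD, n = 5 each; exact permutation test, two-sided p = 0.00794). This p is the smallest that 5 against 5 libraries allow. The long members that carry the same response element letters, TTTCGTTTTC, close to their starts thus had unlike values, since Slfn9 was well detected and not called and Slfn8 was low and higher in RhoB-/-. The remaining genes with a Schlafen name were at or near 0. The pseudogene Slfn10-ps, on the minus strand between Slfn8 and Slfn2, had 0.014 ± 0.0134 TPM in WT and 0.46 ± 0.284 TPM in RhoB-/- libraries with no overlap (SD, n = 5 each; exact permutation test, two-sided p = 0.00794). Slfn14 was listed at 0 in all 10 libraries. Slfnl1, a distant relative on chromosome 4, had 0.052 ± 0.0327 TPM in WT and was listed at 0 in all RhoB-/- libraries (SD, n = 5 each; exact permutation test, two-sided p = 0.0476).

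The makeup of the family's RNA differed between the genotypes. The summed TPM of the 7 members was 28.5 ± 3.08 (SD, n = 5; 25.9 to 33.6) in WT and 313 ± 106 (SD, n = 5; 221 to 488) in RhoB-/- libraries. Slfn4 made up 67.3 ± 7.45% of this sum in WT and 85 ± 4.94% in RhoB-/- libraries (SD, n = 5 each). The share of Slfn9 was 28.4 ± 7.87% in WT, with a range of 20.2% to 38.5%, and 2.25 ± 0.743% in RhoB-/-, with a range of 1.2% to 3.07%. Slfn2 took 2.96 ± 0.944% and 10.2 ± 4.27% (SD, n = 5 each). In the plot of summed TPM and shares, Slfn9 is the second largest part of each WT bar and Slfn2 that of each RhoB-/- bar.

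**Figure D2:**
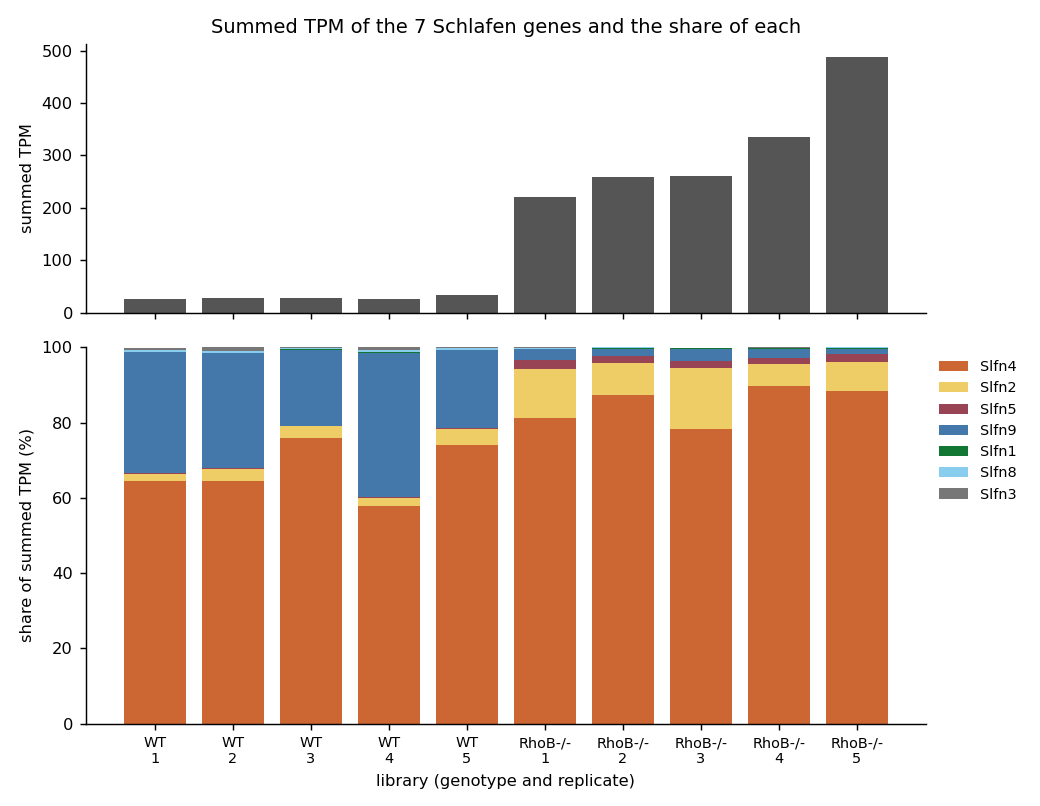
Summed TPM of the 7 Schlafen genes (upper axis) and the percent of that sum from each gene (lower axis) in each of the 10 libraries. The sum runs from 25.9 to 33.6 TPM in WT and from 221 to 488 TPM in RhoB-/- libraries, and the Slfn9 share from 20.2% to 38.5% and from 1.2% to 3.07%.

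In WT the members were ordered Slfn4, Slfn9 and Slfn2 by mean TPM, each above the next in all 5 libraries with ranges that did not overlap. Slfn3, Slfn8, Slfn5 and Slfn1 followed, and each overlapped its neighbour in this order. In RhoB-/- libraries the order was Slfn4, Slfn2, Slfn9, Slfn5, Slfn1, Slfn8 and Slfn3. Slfn9 and Slfn5 overlapped there, as did Slfn1 and Slfn8, and the ranges of the other neighbours did not. RhoB-/- replicate 5 was the highest RhoB-/- library for 4 members, replicate 3 for 2 and replicate 1 for 1.

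Whether the tested members changed by different amounts was asked for each of their 6 pairs, by comparing the log2 ratio of the pair's TPM + 1 between the genotypes. The ratio of Slfn2 to Slfn4 was -3.45 ± 0.08 in WT and -3.10 ± 0.67 in RhoB-/- (SD, n = 5 each), and the difference of 0.34 did not pass (exact permutation test, two-sided p = 0.317, also after adjustment over the 6 pairs). The other 5 pairs passed, each with an exact permutation p of 0.00794 and 0.00952 after Benjamini-Hochberg adjustment. That p is the smallest that 5 against 5 libraries allow. Slfn2 and Slfn5 entered this comparison only through their RhoB-/- values, so a difference in their pairs is partly built in. Pairs with Slfn9 set it beside members whose groups did not overlap, so they largely restate the values of the single genes. Against Slfn9, the ratio was higher in RhoB-/- by 4.27 for Slfn2, 3.93 for Slfn4 and 2.97 for Slfn5 (log2). Against Slfn5, it was higher by 1.30 for Slfn2 and 0.96 for Slfn4. The differences from Slfn9 kept their direction when 0.1 was added in place of 1, but those with Slfn5 turned, to -0.29 for Slfn2 (exact permutation p = 0.397) and -1.53 for Slfn4 (exact permutation p = 0.00794). With 0.1 added, Slfn2 and Slfn4 did differ, by 1.24 (exact permutation p = 0.00794). The order of Slfn2, Slfn4 and Slfn5 by size of change therefore rests on how low WT values are treated, since the ratio of mean TPM was 34.8, 13.9 and 101.

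Genes next to the cluster were described by position and gene type, whatever their values. Within 500 kb of either end of the members' span only protein-coding genes were taken (25), and in the span other genes of any type (15). Of these 40 genes, 16 were tested and 10 were listed at 0 in all libraries. Of the 16, 2 were called higher and 0 lower, against 5.58% and 7.13% of all tested genes. The median log2 fold change of the 16 was 0.01, and that of all tested genes was -0.13. Both called genes are chemokine genes beyond the Slfn3 end of the cluster. Ccl5, which attracts T cells and is made by cytotoxic lymphocytes among others, had 22.15, 9.35, 11.51, 12.27 and 22.58 TPM in WT and 66.60, 74.58, 49.32, 57.68 and 49.07 TPM in RhoB-/- replicates 1 to 5. Its groups did not overlap, and its log2 fold change was 1.93 (adjusted p = 2.13e-04, limma). Ccl4, a chemokine of macrophages and T cells, had 0.256 ± 0.184 TPM in WT and 2.38 ± 1.95 TPM in RhoB-/- libraries (SD, n = 5 each; log2 fold change 1.25, adjusted p = 0.0276, limma), and it reached the filter only through the RhoB-/- values. Its call was lost without WT replicate 2, 4 or 5 (adjusted p = 0.0593, 0.0506 and 0.0581, limma) or RhoB-/- replicate 2 (adjusted p = 0.0637, limma), and without RhoB-/- replicate 1 it was under the filter. Nle1, a ribosome biogenesis gene and the nearest tested protein-coding gene before Slfn5, was not called, with 8.14 ± 2.62 and 5.15 ± 1.64 TPM (SD, n = 5 each; adjusted p = 0.0712, limma).

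**Figure D3:**
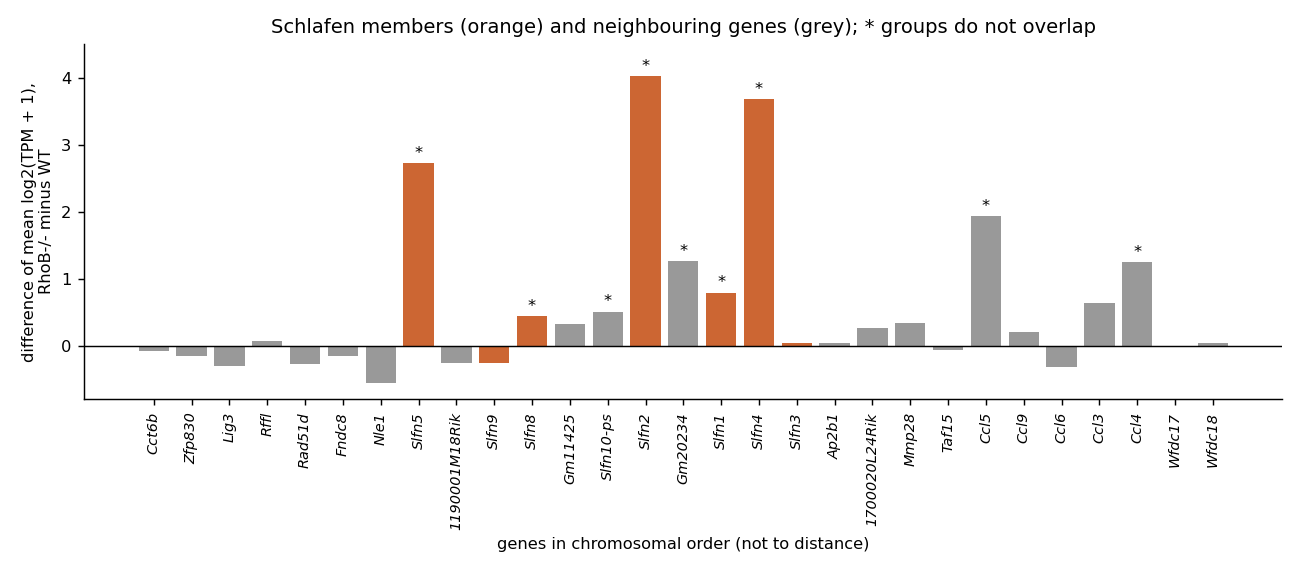
Difference of mean log2(TPM + 1), RhoB-/- minus WT (y axis), for the reported genes in and around the Schlafen cluster whose mean TPM reached 0.1, in chromosomal order. Orange bars are the 7 members, grey bars other genes, and stars mark genes whose groups of 5 libraries do not overlap. Slfn9 (-0.25) lies among bars of the members Slfn5 (2.72), Slfn2 (4.02) and Slfn4 (3.68).

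Because several Schlafen genes are interferon-inducible, the interferon pathway was described from ligand to effector. Of 21 interferon ligand genes none reached the filter and 18 were listed at 0 in all libraries, including Ifnb1. Ifng had 0.678 ± 0.397 TPM in WT and 0.526 ± 0.378 TPM in RhoB-/- libraries (SD, n = 5 each), and Ifnl2 had 0.076 ± 0.112 and 0.052 ± 0.0716 TPM (SD, n = 5 each). Ifnk was listed at 0 in all WT libraries and had 0.44, 0.10, 0.00, 0.22 and 0.13 TPM in RhoB-/- replicates 1 to 5. Of 6 receptor genes, all tested, 1 was called higher: Ifnlr1, a subunit of the receptor for type III interferon, with 3.55 ± 0.636 and 6.47 ± 1.68 TPM (SD, n = 5 each; log2 fold change 0.70, adjusted p = 0.0118, limma). Of 15 signal transducers and regulators, all tested, 7 were higher and 0 lower, with a median log2 fold change of 0.66. Among all tested genes 5.58% were called higher and 7.13% lower, with a median of -0.13. The groups of Irf1 and Socs1, both called, overlapped. The largest values among the 15 were 4.25 for Usp18, 3.05 for Irf7 and 2.03 for Stat2. Usp18 removes Isg15 from proteins and restrains type I interferon signalling. Irf7 drives interferon gene transcription, and Stat2 is a subunit of the interferon-activated transcription complex.

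Of 72 interferon effector genes, a list that holds no Schlafen gene, 69 were tested and 67 were called higher and 0 lower, against 5.58% and 7.13% of all tested genes. This list, like the other gene lists, was chosen with earlier results of these data known, so the counts only describe it. The median log2 fold change of the 69 was 2.27. The largest belonged to Ifi27l2a (6.47), Isg15 (5.43), a ubiquitin-like modifier, and Oasl2 (4.92), a relative of the oligoadenylate synthetases. Among the 67, Ifit2, Ifit3b, Ifi44, Oas1b, Mx2, Gbp3, Iigp1 and Tgtp1 reached the filter only through their RhoB-/- values. The others exceeded it in WT alone. The 2 that did not pass were Isg20, with a value of -0.50, and Cxcl10, with -0.56, and Isg20 was called lower without WT replicate 1 (-0.61) or RhoB-/- replicate 4 (-0.62). Slfn5, Slfn4 and Slfn2, at 2.72, 3.68 and 4.02, lay above this median, and Slfn9 fell within the bulk of all tested genes, as the plot of log2 fold changes shows. In order of log2 fold change from the highest, Slfn2, Slfn4 and Slfn5 were at places 22, 29 and 57 of the 12870 tested genes, and Slfn9 at place 8270.

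**Figure D4:**
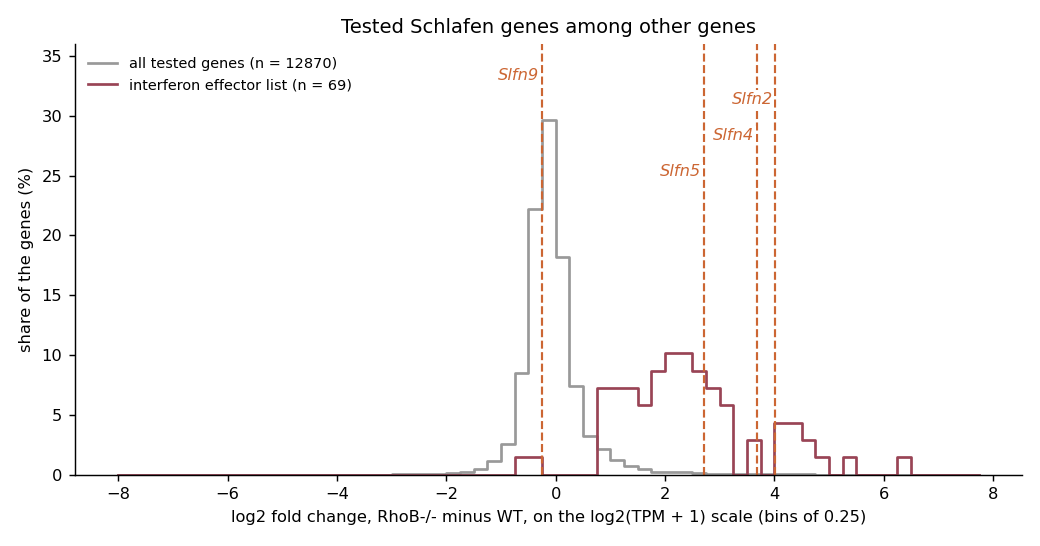
Share of genes (y axis, percent) by log2 fold change, RhoB-/- minus WT on the log2(TPM + 1) scale (x axis, bins of 0.25), for the 12870 tested genes (grey) and the 69 tested interferon effectors (red). Dashed lines mark Slfn9 (-0.25), Slfn5 (2.72), Slfn4 (3.68) and Slfn2 (4.02).

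Likeness of profiles over the 10 libraries was measured by the root-mean-square difference of log2(TPM + 1), after subtraction of each gene's own WT mean. The 3 tested genes most like each called member were then listed, with all genes of a Schlafen name left out. For Slfn4 these were Ddx60, a helicase-like antiviral factor (0.23), Gm12250, which lies in a group of interferon-inducible GTPase genes (0.31), and Xaf1, a proapoptotic interferon-induced gene (0.31). Those nearest to Slfn2 were Ifit2, a tetratricopeptide effector (0.39), Rtp4 (0.43) and Gm12250 (0.46). For Slfn5 they were Herc6, which conjugates Isg15 in mice (0.21), Parp14, an ADP-ribosyltransferase (0.22), and Rnf213, a large ubiquitin ligase (0.24). Ddx60 had 1.13, 2.43, 1.79, 1.31 and 1.49 TPM in WT and 25.56, 34.20, 26.24, 40.58 and 58.15 TPM in RhoB-/- replicates 1 to 5, so its highest library was the one in which Slfn4 was highest. Slfn2 had the largest distances, and it lay above all 3 of its nearest genes in RhoB-/- replicate 3. Likeness to a member requires a similar difference between the genotypes, so these distances describe the profiles and were not tested.

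**Figure D5:**
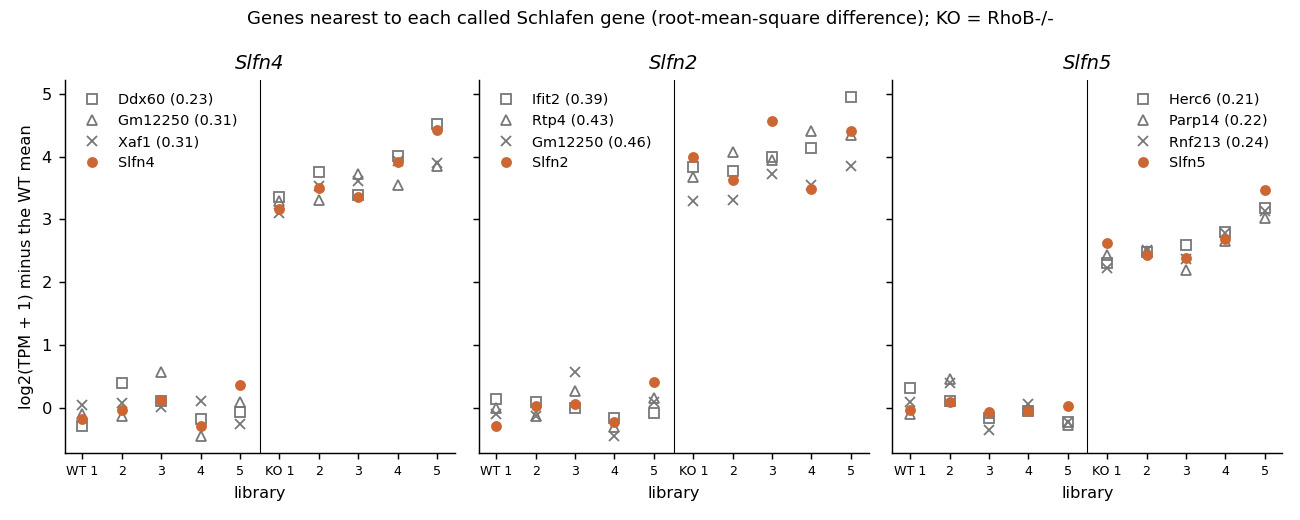
log2(TPM + 1) minus each gene's own WT mean (y axis) in the 10 libraries (x axis; KO stands for RhoB-/-) for Slfn4, Slfn2 and Slfn5 (filled points) and the 3 genes nearest to each (open marks, with the root-mean-square difference in brackets). Distances run from 0.21 to 0.46 and are largest for Slfn2. Genes with a Schlafen name were left out of the search.

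Some markers of other cell types were also higher in RhoB-/- libraries. Among all tested genes 5.58% were called higher. Of 20 T cell markers 13 were tested and 9 were higher, and their summed TPM was 23.5 to 43.4 in WT and 82.3 to 92.4 in RhoB-/- libraries. Gzma, a cytotoxic granule protease and the highest of them, had 4.23 ± 1.87 and 24 ± 2.25 TPM (SD, n = 5 each; log2 fold change 2.32, adjusted p = 1.81e-05, limma). Gzmb had 2.54 ± 1.13 and 13.8 ± 2.54 TPM (SD, n = 5 each), and Gzma and Gzmb gave much of the difference between the sums. The T cell genes Cd247, Trac, Trbc1 and Lck were tested and not called (adjusted p = 0.136, 0.0785, 0.235 and 0.782, limma). Lck had means of 5.04 and 5.45 TPM. Cd8a, Zap70 and Itgae, and Cd68 among the myeloid markers, reached the filter only through their RhoB-/- values. Of 17 myeloid markers 6 were tested and 3 were higher (Ly6g, Tyrobp and Cd68), with sums of 31.6 to 65 TPM and 81 to 158 TPM. Most of these sums came from Ly6g and Cd14. Ly6g, the highest of the 17, had 21.2 ± 7.92 TPM in WT and 71.1 ± 17.9 TPM in RhoB-/- libraries (SD, n = 5 each). Cd14 was not called, with 20.4 ± 4.62 and 24.5 ± 7.52 TPM (SD, n = 5 each; adjusted p = 0.439, limma). The granulocyte genes S100a8 and S100a9 were listed at 0 in all WT libraries and reached at most 4.99 and 4.23 TPM in RhoB-/- libraries. Ptprc, which marks all leukocytes, had 1.97 ± 0.571 and 5.92 ± 2.28 TPM (SD, n = 5 each), and 5 of the 7 tested pan-leukocyte markers of a list of 8 were higher, with sums of 22.4 to 31.1 TPM and 40.4 to 60.9 TPM. No marker of these 3 lists was at 0 in all 10 libraries. The part of these cells in the values of Slfn4, Slfn2, Slfn5, Slfn1 and Slfn8 was not tested.

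The other marker lists held few called genes, and among all tested genes 5.58% were called higher and 7.13% lower. Of 12 B and plasma cell markers 5 were tested and 1, Igha, was higher, with sums of 217 to 279 TPM and 206 to 312 TPM. Most of these sums came from Xbp1, a secretory regulator that epithelial cells also express (128 and 124 TPM on average), and Sdc1 (110 and 110 TPM). Each of the other markers of this list had a higher mean in RhoB-/- libraries, and most were under the filter. Only Jchain did not overlap between the genotypes, with 0.314 ± 0.236 and 1.44 ± 0.588 TPM (SD, n = 5 each). Of 9 erythroid and platelet markers 6 were tested and 0 were called, with sums of 228 to 904 TPM and 58.1 to 944 TPM, led by Hba-a2. Of 12 stromal and endothelial markers 2 were tested and 1, Dcn, was higher, with sums of 4.28 to 5.55 TPM in WT and 6.73 to 36.7 TPM in RhoB-/- libraries, the last in replicate 5. Among the 17 epithelial markers 3 were higher (Aqp8, Krt20 and Vil1) and 1 was lower (Chga, of enteroendocrine cells), and their sums were 27475 to 32149 TPM and 28284 to 45838 TPM, led by Car1.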

How the data were processed

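RNA of colonic IECs from 5 WT and 5 RhoB-/- mice was measured, and the titles of the samples give the genotype and a replicate number. The authors prepared TruSeq libraries and sequenced them with paired-end reads of 150 bp. SeqPrep and Sickle served for trimming, HISAT2 for alignment, StringTie for assembly and RSEM for quantification. The submitters' processing notes also name edgeR and GRCm38.p6. Versions of these tools and the test used by the authors are not given in the sources used here. The deposited TPM values, rounded to 2 decimals by the authors, were used unchanged. TPM is relative to the rest of its library and keeps no depth, so no counting error is given and count tests were not run.

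Genotypes were compared with limma 3.58.1 in R 4.3.3 (lmFit, then eBayes with trend) after log2(TPM + 1) transformation, for genes whose mean TPM reached 1, with Benjamini-Hochberg adjustment. Members under that filter, and log2 ratios of pairs of members, were compared by an exact two-sided permutation test over the 252 labellings of 5 of 10 libraries. The fit was tested on simulated data with known changes. Positions were taken from GENCODE release M21 (55141 of 55487 identifiers found), coding identities from pairwise alignment, and promoters from RefSeq.

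The members and gene lists were chosen with earlier results of these data known. The text names the members, other genes with a Schlafen name, Rhob, neighbouring genes by position, the 3 genes most like each called member, the 3 largest changes of each interferon list and the most abundant marker of each list. Of the neighbouring genes, 1 is left out of the text and the plot and is not reported here. Genes named outside this rule were picked with their values known. No 2 libraries held identical values. Alternatives were other pseudocounts, filters and folds, recentring, quantile normalization, leaving out mitochondrial genes, summing near-identical copies, a replicate block and leaving out each library.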

Additional observations from a re-analysis of the deposited data

Results flagged for a closer look

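Of 21 groups of 5 libraries checked for a sample far from the others, 3 held one. A chance rate of about 1 in 20 does not apply to groups of rounded values near 0, such as Slfn5os in WT. The number found was therefore not set against that rate. In the RhoB-/- group, Slfn5 had 10.75 TPM in replicate 5, and its gap to the next library was 0.792 of the range of the group. In the same library Rhob had 110.87 TPM (0.996 of the range), against at most 0.57 TPM in the other RhoB-/- libraries. Slfn5os had 0.18 TPM in WT replicate 5 and was listed at 0 in the other WT libraries, so its gap was the whole range (1).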

How the results depend on the processing

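Over 109 alternatives, no fold change or mean difference of a member changed its direction. No member tested in the main fit changed its side of the threshold. Slfn1, not tested in the main fit, was called without the filter (log2 fold change 0.79, adjusted p = 0.0109, limma). The log2 fold change ranged from 3.62 to 3.80 for Slfn4, from 4.02 to 4.98 for Slfn2, from 2.69 to 5.27 for Slfn5 and from -0.33 to -0.09 for Slfn9, and with a library left out from 3.49 to 3.80, 3.88 to 4.16, 2.53 to 2.80 and -0.36 to -0.16. The number of members called higher was 3 under all alternatives except without the filter on low TPM, where Slfn1 made it 4, and stayed at 3 with each library left out. Of 209 alternatives to counts, 193 were within 1.5 times the count reported. Over all tested genes, 718 higher and 918 lower genes became 949 and 469 when recentred on the median, 368 and 204 with a fold above 2, and the lower ones 581 with quantile normalization and 1471 without mitochondrial genes. Leaving out a library gave 564 to 796 higher and 618 to 1357 lower genes. Of the genes around the cluster, 1 was higher without the filter, 4 where a mean TPM of 0.5 sufficed, and 1 lower without mitochondrial genes. With a library left out, 1 to 3 of them were higher (1 without WT replicates 2, 4 or 5 or RhoB-/- replicates 1 or 2) and 0 to 1 lower (1 without RhoB-/- replicate 3), 0 to 1 interferon effectors were lower (1 without WT replicate 1 or RhoB-/- replicate 4), and 5 to 6 pairs of members differed. The cause of these changes was not tested.

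The replicate numbers are shared by the genotypes, but deviations of same-numbered libraries from their group means correlated at 0.0241, 0.0164, 0.072, -0.0874 and -0.00245, and not every library correlated best with its own number, so the libraries share only a number. With the replicate block, 3 members were called, with log2 fold changes of 3.68 for Slfn4 (adjusted p = 3.96e-06, limma), 4.02 for Slfn2 (adjusted p = 3.61e-06, limma) and 2.72 for Slfn5 (adjusted p = 6.58e-05, limma), and Slfn9 had an adjusted p of 0.341. TPM keeps no depth, so values of a few hundredths, as for Slfn5 and Slfn1 in WT, cannot be given a counting error.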
